A study of Mus musculus with 88 samples.

Results

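The nuclear genes for the subunits of the mitochondrial respiratory chain were examined in RNA-seq data from 3 brain regions of mice of 2 inbred strains after chronic social defeat stress (CSDS). Members were chosen by symbol alone in the GRCm38 annotation and were placed in complexes by symbol too. The Ndufa, Ndufb, Ndufc, Ndufs and Ndufv genes were counted under complex I and Sdha to Sdhd under complex II. The Uqcr genes were counted under complex III, the Cox4i and Cox5 to Cox8 genes under complex IV and the Atp5 genes under complex V. Whether each protein belongs to the complex that its symbol names was not checked. Pseudogenes with a -ps name and the assembly factors were left out. The rule found 89 genes among the 48811 in any of the region tables, 41 for complex I, 4 for complex II, 8 for complex III, 19 for complex IV and 17 for complex V. Of these, 85 were annotated as protein coding, and Ndufa11b, Ndufb4c, Ndufs6b and Cox6c2 as processed pseudogenes. The tests covered 84 members in the medial prefrontal cortex (mPFC), 84 in the ventral hippocampus (vHPC) and 83 in the bed nucleus of the stria terminalis (BNST), where all 89 were in the table. In the BNST, Ndufa11b, Ndufb4c, Ndufs6b, Cox7b2, Cox8b and Cox8c were too low to be tested.

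Complexes I and II pass electrons from NADH and succinate to ubiquinone, complex III passes them on to cytochrome c, and complex IV passes them to oxygen. Complexes I, III and IV pump protons across the inner mitochondrial membrane, and complex V, the ATP synthase, uses that gradient to make ATP. Most subunits are encoded in the nucleus, while the mitochondrial genome encodes a few core subunits of every complex except complex II, so that both genomes supply these complexes. Neurons draw on this chain to restore the ion gradients that firing and synaptic transmission run down.

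The mice were 8-week-old males of the strains C57BL/6Crl (B6) and DBA/2Crl (D2), as the labels spell them, which the study's methods give as C57BL/6NCrl and DBA/2NCrl. Defeated mice had met CD1 aggressors daily and were classed as resilient or susceptible by their social interaction ratio against controls of the same strain, while control mice were not defeated, and tissue was taken 6 to 8 days after the last defeat. The phenotype is therefore a class given by behaviour after the treatment, not a treatment, and D2 mice differ from B6 mice at many loci at once. The mPFC libraries came from 6 control, 6 resilient and 6 susceptible B6 mice and from 6 control and 8 susceptible D2 mice. In the BNST, 5 mice each were B6 controls, B6 resilient, B6 susceptible, D2 controls and D2 susceptible, and 3 were D2 resilient. Libraries of the vHPC came from 6 control, 8 resilient and 3 susceptible B6 mice and from 6 control and 5 susceptible D2 mice. In all, 88 libraries were read, 1 per mouse and region, and 7 mice were used for the mPFC as well as the vHPC.

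Levels are given as log2 CPM, the base 2 logarithm of reads per gene scaled to a common library size (CPM), and a log2 fold change is a difference of these. The mPFC and vHPC values were log2 CPM made by the authors and were tested with limma. The BNST values were read counts, 11825757 to 25793910 per library, tested with edgeR, and their log2 CPM were scaled with TMM factors, which set aside genes that take an unusual share of a library. A member was called when its p-value, adjusted with the Benjamini-Hochberg method over all genes tested in the region, was under 0.05. The interaction is the difference between susceptible and control mice in D2 less that in B6. The 3 tables were normalized separately and no test was made between regions. The tissue was bulk, so a lower share of cells of a type and less RNA per cell cannot be told apart.

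Per kilobase of the principal transcript, the complexes had similar middle levels and wide ranges (the plot of levels per transcript length). The median over members in the mPFC was 5.43 log2 CPM per kb for complex I, 5.87 for complex II, 5.62 for complex III, 5.51 for complex IV and 5.94 for complex V. In the BNST these medians were 5.305, 5.06, 5.92, 6.09 and 6.10, and in the vHPC 5.596, 6.19, 6.57, 6.00 and 6.15, in the same order. Atp5b, the catalytic beta subunit of the ATP synthase, was the highest complex V member in every region, at 8.29 (mPFC), 7.75 (BNST) and 9.12 (vHPC) log2 CPM per kb. In complex II, Sdha, the flavoprotein that oxidizes succinate, led in the mPFC at 6.74 and in the BNST at 5.75, and Sdhb, the iron-sulfur subunit, led in the vHPC at 6.78 (Sdha 6.34). Sdhc, a membrane anchor, was the lowest complex II member in all 3 regions, at 3.77, 3.94 and 4.59. In complex I, Ndufb9 led in the mPFC at 7.16 and in the vHPC at 7.43, and Ndufa3 in the BNST at 7.04, all of them accessory subunits. Complex III was led by Uqcrh in the mPFC at 7.50, Uqcr10 in the BNST at 6.46 and the core subunit Uqcrc1 in the vHPC at 7.11, and complex IV by Cox6c at 8.02, Cox8a at 8.34 and Cox4i1 at 8.45. Which member leads depends on the length used. Per kilobase of all exons of a gene joined, Atp5a1, the alpha subunit of the ATP synthase, was above Atp5b in every region (8.08 and 7.98 log2 CPM per kb in the vHPC), and Sdhd led complex II in the vHPC at 6.03. Complex I was then led by Ndufa5 in the mPFC at 6.72 and by Ndufb9 in the BNST at 6.29, complex III by Uqcr10 in the vHPC at 6.18, and complex IV by the pseudogene Cox6c2 in the mPFC at 6.98 and by Cox8a in the vHPC at 7.50, while Cox6c was at 5.20 in the mPFC. The remaining leaders were the same genes under both lengths, as was Sdhc at the bottom of complex II. For Sdhc both lengths are nearly the same, 3171 and 3250 bases. Before division by length Sdhc was lowest in the mPFC (5.43 log2 CPM) and vHPC (6.26), but in the BNST it was at 5.61, above Sdhd at 4.93.

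**Figure D1:**
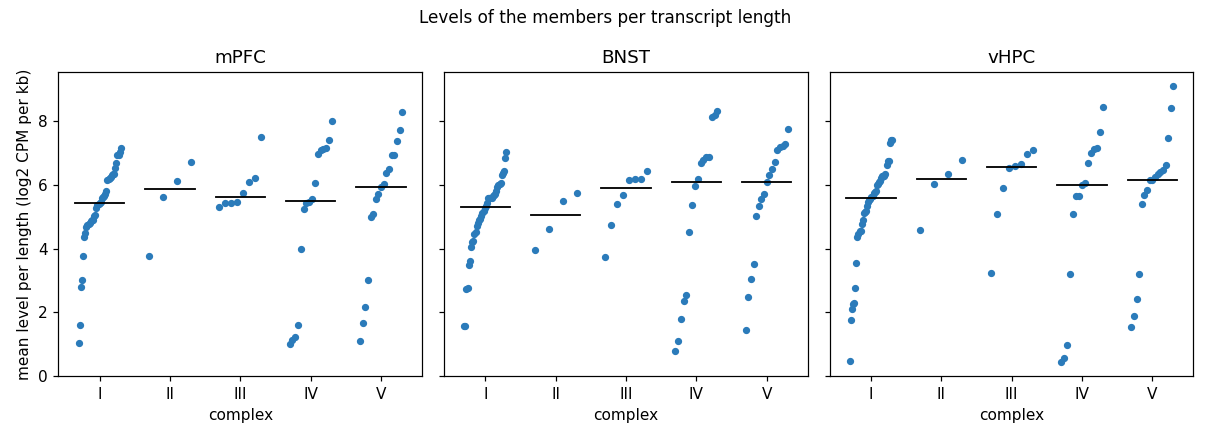
Mean level per transcript length (log2 CPM per kb, mean over all mice of a region) of each tested member, sorted within its complex (I to V); each point is a gene and each horizontal line the median of a complex. Complex IV spans from 0.43 to 8.45 in the vHPC, and the complex II genes lie between 3.77 and 6.78.

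Paralogs of one subunit differed widely in level. Cox4i1, the common form of complex IV subunit 4, was at 7.40 log2 CPM per kb for the mPFC, 6.88 for the BNST and 8.45 for the vHPC, whereas Cox4i2, a form known from lung and from vascular mural cells, was at 0.996, 0.77 and 0.55. Cox6a1 was at 5.23, 8.21 and 7.02, while Cox6a2, a heart and muscle form that is also known in parvalbumin interneurons, was at 1.59, 2.35 and 0.97. Cox6b1 was at 7.09, 6.78 and 7.16, and Cox6b2, known from testis, at 1.136, 1.10 and 0.43. Cox7a2 was at 6.05, 6.89 and 6.69 and Cox7a2l at 5.46, 4.54 and 5.65, whereas the muscle form Cox7a1 was at 1.23 in the mPFC and 1.78 in the BNST. Ndufa4 was at 6.93, 6.32 and 7.42, and its paralog Ndufa4l2 at 1.58 in the BNST and 0.45 in the vHPC. Atp5g1, Atp5g2 and Atp5g3 encode the same mature c subunit of the ATP synthase rotor, and of these Atp5g3 was highest in every region, at 5.72, 6.10 and 6.62. Atp5g1 was at 1.67, 3.05 and 2.43 and Atp5g2 at 1.09, 3.53 and 1.55. Much of the gap between Atp5g3 and Atp5g1 reflects the transcript lengths used, 714 and 4715 bases. Before division by length Atp5g3 was at 5.23, 5.61 and 6.14 log2 CPM and Atp5g1 at 3.91, 5.29 and 4.66. The forms best known from other tissues were thus within the lowest part of complex IV in these samples. Atp5g2 and Atp5l shared 86.6% and 71.6% of their 91-base stretches with other genes, so their counts are uncertain.

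Promoter sequence is a feature that the rule did not use. Nuclear respiratory factor 1 (NRF1), the GA-binding protein GABP (also called NRF2) and YY1 are known as activators of respiratory chain genes. Promoters of 250 bases before to 50 bases after the start were taken from RefSeq on the build GRCm38.p6, and 69 of the 85 protein-coding members had one. The NRF1 motif GCGCATGCG, on either strand, was in 8 of these 69 promoters (11.6%) and in 2.61% of the promoters of 17492 protein-coding genes. The GABP motif CCGGAAGT was in 5 (7.25%) against 5.69% of all, and the YY1 motif ATGGCGGC in 6 (8.70%) against 3.504%. The letters were exact and matches did not have to be bound sites. The NRF1 matches were in Ndufa11, Ndufa8, Uqcr11, Uqcrc1, Cox6a1, Atp5g2, Atp5k and Atp5l. The sequences below are given 5′ to 3′ on the strand of the gene, with motif matches in capitals. Cox7a2l (chr17:83514284-83514583, minus strand) and Ndufc2 (chr7:97399753-97400052, plus strand) are shown because they differed between strains in every region, and they held none of the motifs. Ndufa8 (chr2:36049289-36049588, minus strand) and Uqcr11 (chr10:80406772-80407071, minus strand) are shown because they were among the members that differed in the vHPC and carry matches: NRF1 9 bases before the start in Ndufa8, and NRF1 5 and GABP 66 bases before the start in Uqcr11.
Cox7a2l: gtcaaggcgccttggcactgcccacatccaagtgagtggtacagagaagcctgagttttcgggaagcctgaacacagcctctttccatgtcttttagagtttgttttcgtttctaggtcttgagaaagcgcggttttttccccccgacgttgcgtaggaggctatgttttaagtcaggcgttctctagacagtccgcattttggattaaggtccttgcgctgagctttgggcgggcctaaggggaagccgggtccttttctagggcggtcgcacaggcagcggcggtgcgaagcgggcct
Ndufc2: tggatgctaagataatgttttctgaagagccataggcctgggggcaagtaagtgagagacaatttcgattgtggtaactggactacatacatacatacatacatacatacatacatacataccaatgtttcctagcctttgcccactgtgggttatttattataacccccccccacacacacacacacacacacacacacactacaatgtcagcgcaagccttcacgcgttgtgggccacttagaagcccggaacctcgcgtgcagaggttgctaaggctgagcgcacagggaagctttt
Ndufa8: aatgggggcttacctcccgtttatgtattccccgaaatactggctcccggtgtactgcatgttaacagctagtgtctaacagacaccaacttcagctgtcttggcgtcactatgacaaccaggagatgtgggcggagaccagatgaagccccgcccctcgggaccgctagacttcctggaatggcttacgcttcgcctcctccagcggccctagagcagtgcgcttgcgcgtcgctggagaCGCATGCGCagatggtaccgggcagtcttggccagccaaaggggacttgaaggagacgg
Uqcr11: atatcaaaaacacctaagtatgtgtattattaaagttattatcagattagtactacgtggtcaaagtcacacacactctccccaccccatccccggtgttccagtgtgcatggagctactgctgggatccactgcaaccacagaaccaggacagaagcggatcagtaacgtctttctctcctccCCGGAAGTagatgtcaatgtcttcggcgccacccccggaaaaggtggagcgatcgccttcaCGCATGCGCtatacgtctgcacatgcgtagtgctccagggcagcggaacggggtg

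Library properties were checked before the comparisons. A scale was made from non-member genes (142 for the mPFC, 143 for the BNST, 187 for the vHPC) that differed strongly between D2 and B6 controls in another region, with B6 controls of the region at 0 and its D2 controls at 1. In the mPFC and BNST every mouse lay at the end given by its label, with the stressed B6 mice between -0.03 and 0.08 and the stressed D2 mice between 0.92 and 1.06. In the vHPC the controls lay at -0.01 to 0.01 and 0.94 to 1.08, but the libraries labelled B6 resilient lay at 0.29 to 0.36, those labelled B6 susceptible at 0.44 to 0.51 and those labelled D2 susceptible at 1.16 to 1.27 (the plot of the strain-marker scale). Of the 10 library preparation sets of the vHPC, 0 mixed defeated with control mice of B6 and 1 did so for D2. Within B6 mice alone, the vHPC comparisons of defeated with control mice therefore cannot be told apart from the library set. Fits with the set as a model term reached them only through sets shared with D2 mice. The values had also been adjusted for batch by the authors already. The vHPC comparisons are given below as deposited and also less the shift along this scale. As a check of the vHPC and mPFC labels, 8 hippocampal markers summed to 1120 to 1493 CPM in the vHPC and 436 to 632 CPM in the mPFC. In the BNST, 8 striatal neuron markers summed to 634 to 7133 CPM, a wide range between libraries, against 49.4 to 81.0 CPM in the vHPC. These are not markers of the BNST itself and do not check its label. The tables were normalized separately.

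**Figure D2:**
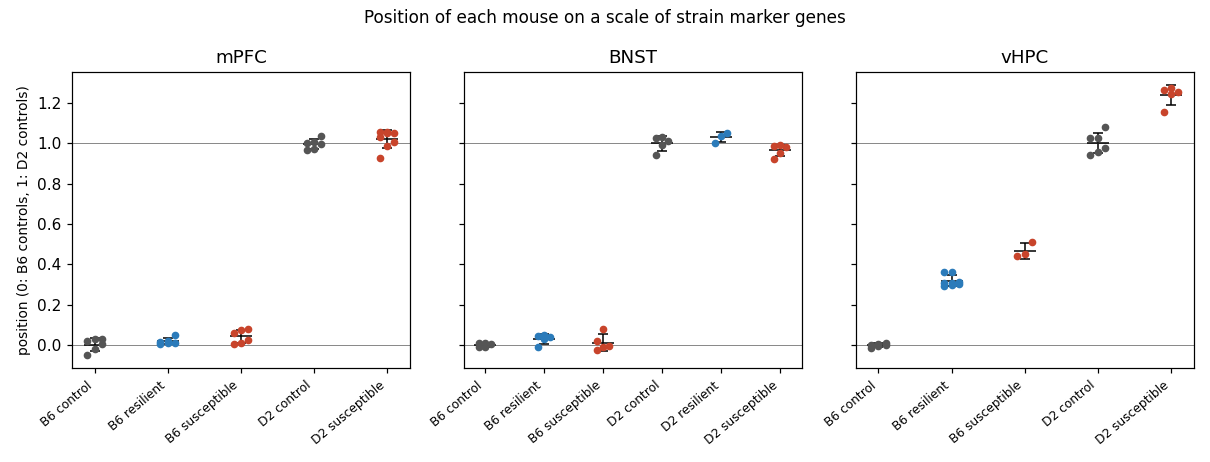
Position of each mouse (points; mean and SD as bars) on the scale of strain-marker genes, where 0 is the mean of B6 controls and 1 that of D2 controls of the region. Stressed mice of the mPFC and BNST lie with their controls, whereas in the vHPC the 8 B6 resilient mice lie at 0.29 to 0.36, the 3 B6 susceptible mice at 0.44 to 0.51 and the 5 D2 susceptible mice at 1.16 to 1.27.

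The comparison of D2 with B6 controls asked which subunit genes differ between the strains without stress. In the mPFC, 6 members were higher in D2 and 12 lower, that is 18 of 84, where 13.4% of all genes were called higher and 14.4% lower. Complex I had 1 higher and 8 lower, complex II none in either direction, complex III 1 higher, complex IV 1 higher and 2 lower, and complex V 3 higher and 2 lower. In the BNST, 2 members were higher and 1 lower, that is 3 of 83, with 2.51% of all genes called in either direction. In the vHPC, 13 were higher and 21 lower of 84, with 30.2% and 29.1% of all genes called higher and lower. With the library preparation set as a model term, 1 member was higher and 3 lower in the vHPC and 8.4% of all genes were called, and the 4 members were Cox5a, Cox7a2l, Cox7c and Ndufa12. In the fit without that term, complex I had 4 higher and 12 lower, complex II 2 higher, complex III none, complex IV 3 higher and 6 lower, and complex V 4 higher and 3 lower. The share of members called was below that of all genes in the mPFC and vHPC and, with 3 calls, above it in the BNST, and their median log2 fold change was -0.03 (mPFC), 0.14 (BNST) and -0.05 (vHPC), against 0.00, 0.04 and 0.01 over all genes.

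Cox7a2l and Ndufc2 were among the 3 members called in all regions (the plot of members with large strain differences). Cox7a2l, on chromosome 17 from 83501918 to 83517330 on the minus strand, encodes a protein that joins complexes III and IV into supercomplexes and is known to be shortened in some B6 lines. Its log2 CPM in the mPFC was 5.73 to 5.90 in B6 controls (median 5.78) and 5.23 to 5.48 in D2 controls (median 5.32), and in the BNST it was 4.796, 5.07, 5.403, 5.57 and 4.91 in B6 controls and 4.1225, 4.08, 3.65, 4.33 and 3.70 in D2 controls. In the vHPC it was 6.32 to 6.68 (median 6.54) and 5.00 to 5.33 (median 5.18). All D2 controls lay below all B6 controls in each region. The log2 fold change was -0.44 (SE 0.05, adjusted p = 2.38e-08, limma) for the mPFC, -1.19 (SE 0.20, adjusted p = 0.000335, edgeR) for the BNST and -1.37 (SE 0.09, adjusted p = 2.32e-12, limma) in the vHPC. Cox7a2l shares 12.5% of its 91-base stretches with the pseudogene Gm6969, which was higher in D2 controls by 2.46, 2.66 and 2.42 on the log2 scale in the mPFC, BNST and vHPC. The log2 of the summed CPM of both genes differed by -0.10, -0.81 and -0.57. Most of the Cox7a2l difference was thus absent from the sum in the mPFC and vHPC, and a smaller part in the BNST.

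Ndufc2, an accessory complex I subunit on chromosome 7 from 97400003 to 97407802 on the plus strand, was lower in D2 controls in the mPFC and vHPC and higher in the BNST. In the mPFC it was at 5.31 to 5.48 log2 CPM in B6 (median 5.42) and 4.79 to 4.96 in D2 (median 4.85), and in the vHPC at 5.43 to 5.69 (median 5.64) and 4.85 to 5.22 (median 4.99). In the BNST it was at 4.65, 4.61, 4.77, 4.54 and 4.702 in B6 and at 6.03, 5.98, 5.49, 5.82 and 5.44 in D2. The groups did not overlap in any region. The log2 fold change was -0.54 (SE 0.05, adjusted p = 1.57e-10) for the mPFC, 1.117 (SE 0.16, adjusted p = 3.31e-05) for the BNST and -0.58 (SE 0.08, adjusted p = 1.32e-06) for the vHPC, where with the library set in the model it was -0.78 with an adjusted p of 0.152 (limma). The BNST libraries were made with another kit and the D2 reads were aligned to the B6 genome, and the part of either in this reversal was not tested. None of its 91-base stretches is shared with another gene.

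**Figure D3:**
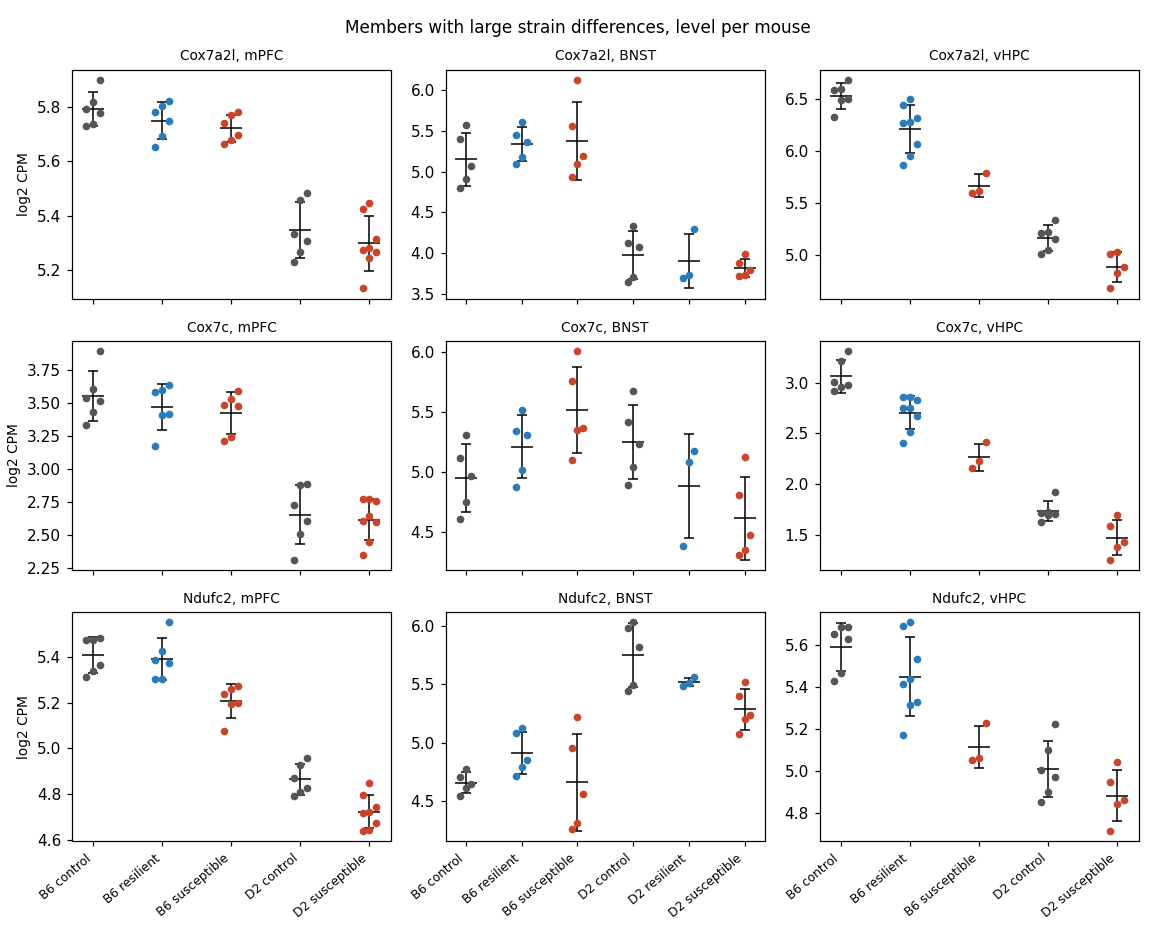
Level per mouse (log2 CPM, points; mean and SD as bars) of Cox7a2l, Cox7c and Ndufc2 in the groups of each region, each panel with its own axis. Ndufc2 is lower in D2 than in B6 controls in the mPFC and vHPC (log2 fold changes -0.54 and -0.58) and higher in the BNST (1.117), and the B6 susceptible mice of the vHPC lie between both sets of controls for Cox7a2l and Cox7c.

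The members that follow were called between the strains in the mPFC or vHPC and not in the BNST, which does not show that the regions differ. Cox7c, a small complex IV subunit, was at 3.34 to 3.89 log2 CPM in B6 controls and 2.31 to 2.89 in D2 controls of the mPFC, and at 2.91 to 3.31 and 1.63 to 1.92 in the vHPC, without overlap. It was lower in D2 by a log2 fold change of -0.90 (SE 0.10, adjusted p = 5.12e-08) and -1.33 (SE 0.09, adjusted p = 8.34e-13), while in the BNST it was 0.31 (SE 0.20, adjusted p = 0.524). Of its 91-base stretches 47.6% are shared with Gm10012 and Gm12338, and the log2 of the sum with Gm12338 differed by -0.50 in the mPFC and -0.27 in the vHPC. Cox5a, a nuclear subunit bound to the core of complex IV, was higher in D2 by 0.46 (SE 0.10) in the mPFC and 0.69 (SE 0.06) in the vHPC, and Atp5mpl, a small complex V protein, was lower by -0.60 (SE 0.11) in the mPFC and -0.59 (SE 0.11) in the vHPC. Atp5g2 was higher by 0.72 (SE 0.17) in the mPFC and 0.52 (SE 0.11) in the vHPC, with the sharing given above. Ndufa12 was lower in the vHPC by -1.05 (SE 0.11), but the pseudogene Gm15920, with which it shares 19.2% of its stretches, was higher by 0.98, and the log2 of their sum differed by -0.11. Ndufa8 was higher in the vHPC by 0.52 (SE 0.08). With the library set in the model, the adjusted p (limma) in the vHPC was 0.267 for Atp5g2 and 0.147 for Ndufa8. In these control mice, all 10 oligodendrocyte markers were lower in D2 in the mPFC (median -0.85) and vHPC (median -1.20), and in the BNST they were above 0 with 0 called (median 0.53). In the vHPC all 8 endothelial (median -0.75), all 9 pericyte and smooth muscle (median -0.79) and all 8 choroid plexus markers (median -2.65) were lower in D2 too, and 4 of 5 parvalbumin interneuron markers were higher in the mPFC (median 0.34) and in the vHPC (median 0.38). Their part in these differences was not tested.

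In the mPFC, the comparison of stressed with control mice asked whether subunit genes differ with the outcome of CSDS. In B6 resilient mice 0 of 84 members were called (0% of all genes), with 1 higher and 1 lower at an unadjusted p under 0.05, where 2.11% and 1.75% of all genes were. These were Atp5g2 (log2 fold change 0.36, SE 0.17) and Ndufs4 (-0.13, SE 0.06). In B6 susceptible mice 0 members were higher and 4 lower, with 0.94% and 1.28% of all genes called higher and lower. The lower members were Ndufc2, Ndufv2 and Ndufa5 of complex I and Atp5b of complex V. The median of the 84 members was -0.06 against 0.00 over all genes, and 23 were above 0. The medians were -0.06 in complex I, -0.04 in complex II, -0.05 in complex III, -0.08 in complex IV and -0.03 in complex V.

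Ndufc2 was at 5.31 to 5.48 log2 CPM in B6 controls of the mPFC (median 5.42), 5.302 to 5.55 in resilient mice (median 5.38) and 5.07 to 5.27 in susceptible mice (median 5.22). Every susceptible mouse lay below every control and resilient mouse. The log2 fold change against controls was -0.20 (SE 0.05, adjusted p = 0.0266, limma) and against resilient mice -0.18 (SE 0.05, adjusted p = 0.0417). Ndufv2, an iron-sulfur subunit of the NADH-binding module of complex I, was at 7.12 to 7.25 in controls (median 7.20), 7.04 to 7.38 in resilient and 6.90 to 7.05 in susceptible mice (median 7.03). Susceptible mice lay below all controls and overlapped the resilient mice. Its log2 fold change was -0.19 (SE 0.05, adjusted p = 0.0337) against controls and -0.18 (SE 0.05, adjusted p = 0.0405) against resilient mice. Ndufa5 was lower by -0.20 (SE 0.05, adjusted p = 0.045) and Atp5b by -0.13 (SE 0.03, adjusted p = 0.0431), each with overlapping groups. These are differences of at most 0.20 on the log2 scale. The prefix of the mouse name was C7 in 1 of the 6 controls and in 5 of the 6 susceptible mice. With the prefix in the model 0 of the 4 members were called (0% of all genes). With the preparation set as a model term (0.206% of all genes) or with only the groups compared (0.0211%) 0 were called too. In the susceptible mice 9 of 10 oligodendrocyte markers were also lower (median -0.73, summed level 1217 to 1856 CPM against 1670 to 3221 CPM in controls). Striatal neuron markers had a median of -0.85 with 0 called. Their part in the result was not tested.

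Susceptible against resilient B6 mice gave 0 higher and 3 lower members of 84 in the mPFC, with 2.02% of all genes called in either direction. None of the 3 was called with the library set (0.0106% of all genes) or only the compared groups (0.137%) in the model. The prefix of the mouse name in the model also gave 0 (0%). Of the mice compared, 5 of the 6 susceptible but 0 of the 6 resilient mice had the prefix C7. Ndufc2 and Ndufv2 are given above, and the third was Cox6a2, at 1.23 to 1.58 log2 CPM in resilient mice (median 1.41), 0.11 to 1.33 in susceptible mice (median 0.70) and 1.02 to 1.43 in controls (median 1.24). Susceptible replicate 1, at 1.33, lay within the resilient range and the other 5 below it. The log2 fold change was -0.72 (SE 0.18, adjusted p = 0.0404), and against controls it was -0.57 (SE 0.18, adjusted p = 0.0829). With the library set in the model the difference from resilient mice was -0.73 (adjusted p = 0.105, limma) and with the prefix -0.30. The parvalbumin interneuron markers, whose cells are known to use Cox6a2, had a median log2 fold change of 0.06 against resilient mice with 1 of 5 called higher. In the same comparison 6 of 10 oligodendrocyte markers were lower (median -0.69), and striatal neuron markers had a median of -0.88 with 0 called and 5 of 8 lower unadjusted. The part of these markers was not tested. In D2 susceptible mice 0 of 84 members were called (0% of all genes), with 0 higher and 2 lower unadjusted against 2.27% and 1.6% of all genes. Ndufc2 was the lowest by p-value, at 4.79 to 4.96 in controls and 4.64 to 4.85 in susceptible mice, which overlapped (log2 fold change -0.14, SE 0.04, adjusted p = 0.985, limma), and Ndufs3 had the lowest p-value in the other direction (0.12, SE 0.07). The interaction gave 0 calls (0% of all genes), with 3 members higher and 1 lower unadjusted, where 4.91% and 4.41% of all genes were. Cox6a2 (0.76, SE 0.25) and Atp5d (-0.25, SE 0.09) had the lowest p-values of each direction. Setting the strains side by side, the Ndufc2 difference of susceptible mice was -0.20 in B6 and -0.14 in D2.

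In the BNST no member was called with stress, but the members' medians lay on opposite sides of 0 in the strains (the plot of the median level per mouse). In B6 susceptible mice 0 of 83 members were called (0% of all genes) by edgeR and 0 by DESeq2. Unadjusted, 23 were higher and 0 lower, where 3.83% and 2.53% of all genes were. The median log2 fold change of the members was 0.35 against 0.01 over all genes, and 73 of 83 were above 0. By complex the medians were 0.33, 0.23, 0.37, 0.59 and 0.29 for I to V. In D2 susceptible mice 0 were called (0% of all genes) by edgeR and 1 by DESeq2 (0.0685% of all genes), with 0 higher and 32 lower unadjusted against 1.79% and 4.24% of all genes. The median was -0.40 against -0.04 over all genes, and 5 of 83 were above 0. By complex the medians were -0.32, -0.17, -0.35, -0.64 and -0.43. Complex IV thus had the median farthest from 0 and complex II the nearest in both strains.

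**Figure D4:**
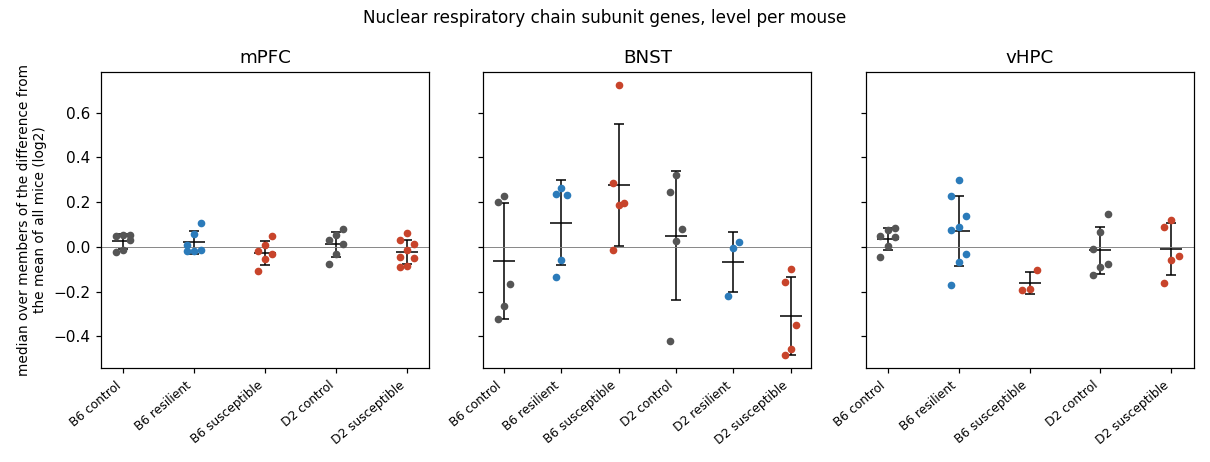
Median over members of each mouse's difference from the mean of all mice of the region (log2, points; mean and SD of a group as bars). In the BNST the B6 susceptible mice lie at -0.01 to 0.72 and the D2 susceptible mice at -0.48 to -0.10, while the mPFC groups overlap within 0.11 of 0.

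The interaction in the BNST gave 0 called members (0% of all genes) by edgeR and 16 by DESeq2, all lower, with 1.27% of all genes called by DESeq2. At an unadjusted p under 0.05, 45 of 83 were lower and 0 higher, where 7.35% of all genes were lower and 4.09% higher. The median was -0.74 against -0.04 over all genes, with -0.71, -0.47, -0.71, -1.17 and -0.69 for complexes I to V. The lowest p-value was that of Uqcrb, a small complex III subunit. It was at 4.92, 4.98, 5.14, 5.38 and 4.98 log2 CPM in B6 controls and 5.71, 5.81, 5.51, 5.58 and 5.96 in B6 susceptible mice, and at 5.67, 6.15, 5.21, 5.42 and 4.88 in D2 controls and 5.12, 4.77, 5.06, 4.45 and 4.64 in D2 susceptible mice. All B6 susceptible mice lay above all B6 controls, whereas the D2 groups overlapped. Its interaction was -1.34 (SE 0.27, adjusted p = 0.0708, edgeR), with 0.63 (SE 0.19) in B6 and -0.70 (SE 0.19) in D2. Uqcrb shares 19.6% of its stretches with 3 pseudogenes. In the other direction Cox4i2 had the lowest p-value (0.49, SE 0.54).

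Within the strains, Atp5h, a stalk subunit of the ATP synthase, had the lowest p-value in B6 susceptible mice of the BNST. It was at 5.62, 5.65, 5.62, 5.94 and 5.595 log2 CPM in controls and 6.47, 6.52, 5.84, 6.60 and 6.80 in susceptible mice. Of the susceptible mice, 4 lay above all controls and replicate 3 below the highest control. Its log2 fold change was 0.79 (SE 0.19, adjusted p = 0.559, edgeR), and 35.5% of its stretches are shared. Ndufs3 had the lowest p-value of the other direction (-0.15, SE 0.15). In D2 susceptible mice it was Ndufc1, an accessory complex I subunit with no shared stretch, at 4.96, 5.07, 4.57, 4.90 and 4.48 in controls and 4.21, 4.02, 4.37, 4.01 and 4.05 in susceptible mice. The groups did not overlap, and its log2 fold change was -0.67 (SE 0.15, adjusted p = 0.411), and Cox4i2 was on the other side at 0.32 (SE 0.39).

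In the BNST, the median log2 fold change of resilient mice lay between 0 and that of susceptible mice in both strains. In B6 this order rested on 1 library, since without susceptible replicate 3 the median of susceptible mice was 0.15, below the 0.18 of resilient mice, and the per-mouse positions of B6 resilient (median 0.23) and B6 susceptible mice (median 0.19) overlapped. B6 resilient mice had 0 called members (0% of all genes), 0 unadjusted in either direction against 1.06% higher and 0.811% lower of all genes, and a median of 0.18. Ndufc1 (0.26, SE 0.15) and Sdhd (-0.13, SE 0.13) had the lowest p-values. D2 resilient mice had 0 called (0% of all genes) and 0 higher and 2 lower unadjusted against 2.2% and 3.24% of all genes, with a median of -0.16 that ranged from -0.25 without resilient replicate 2 to -0.07 without resilient replicate 1. Sdhd (-0.35, SE 0.15) and Cox4i2 (0.41, SE 0.44) had the lowest p-values. Susceptible against resilient B6 mice gave 0 called members, 0.00571% of all genes being called, with 7 higher and 0 lower unadjusted against 4.03% and 3.52% of all genes. Their median was 0.15, or -0.0084 without susceptible replicate 3 and 0.08 with the name prefix in the model. Ndufa2 had the lowest p-value (0.60, SE 0.16, adjusted p = 0.301), with Ndufc2 on the other side (-0.21, SE 0.16). DESeq2 called 0 members in these 3 comparisons.

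Other values moved with the BNST pattern. The 7 protein genes of the mitochondrial genome among the genes tested had medians of 0.89 in B6 susceptible mice, -1.12 in D2 susceptible mice and -2.05 in the interaction, with 0 called. The summed level of all 13 of these genes was 22985 to 108450 CPM in B6 controls, 76829 to 116805 in B6 susceptible, 19433 to 91045 in D2 controls and 15079 to 37180 in D2 susceptible mice. Mitochondrial ribosomal RNA made up 5.81% to 15.7% of the reads in B6 controls, 13.7% to 25.3% in B6 susceptible, 8.90% to 26.7% in D2 controls and 4.795% to 7.94% in D2 susceptible mice. All 10 oligodendrocyte markers were above 0 in B6 (median 0.63) and below 0 in D2 (median -0.80), with 0 called. Their summed level was 2798 to 8116 CPM in B6 controls, 5570 to 11648 in B6 susceptible, 3655 to 11898 in D2 controls and 2249 to 6711 in D2 susceptible mice, so the groups overlapped. Medians in B6 and D2 susceptible mice were 0.12 and -0.46 for neuron markers, 0.03 and -0.70 for parvalbumin interneuron markers, 0.26 and -0.36 for astrocyte markers and -0.93 and 0.62 for excitatory neuron markers, with 0 called. The TMM factors were 0.82 to 1.22 in B6 controls, 0.66 to 0.97 in B6 susceptible, 0.81 to 1.143 in D2 controls and 1.118 to 1.27 in D2 susceptible mice. As a share of all reads, with no such factor, the members had medians of 0.471% and 0.521% in B6 control and susceptible mice and 0.538% and 0.472% in D2. The part of these values in the pattern was not tested. Without TMM factors the members' medians were 0.07 in B6 susceptible and -0.10 in D2 susceptible mice, with 9 and 7 unadjusted calls, while the medians of all genes were -0.25 and 0.27. The median of all genes in the interaction then moved from -0.04 to 0.53 and that of the members to -0.16. The members less all genes stood at -0.69 without these factors and -0.70 with them. A scaling factor shifts all genes of a library alike, so this difference could hardly change and does not test the pattern.

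One library of the BNST stood apart: D2 control replicate 2 had a complex III position of -0.78, against -0.03 (SD 0.43) over the 5 D2 controls, and in Cox8a it was at 5.41 log2 CPM with the other D2 controls at 6.99 to 8.19. Without it the median of the members in D2 susceptible mice was -0.49 with 57 unadjusted calls, and in the interaction it was -0.90. B6 susceptible replicate 3 was the highest library of its group. Without it the median in B6 susceptible mice was 0.15 with 20 unadjusted calls, and in the interaction it was -0.56.

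In the vHPC more members were lower than higher in B6 susceptible mice. There 6 of 84 members were higher and 31 lower than in controls, where 20.5% of all genes were called higher and 20.1% lower. The median was -0.22 against -0.01 over all genes, and 14 members were above 0. Complex I had 2 higher and 15 lower, complex II 1 and 1, complex III 0 and 3, complex IV 1 and 6, and complex V 2 and 6, with medians of -0.22, -0.16, -0.22, -0.27 and -0.15 (the plot of fold changes by complex). The members higher were Cox5a, Sdha, Atp5d, Atp5j, Ndufa8 and Ndufab1. B6 resilient mice had 2 higher and 3 lower members, with 4.94% and 5.9% of all genes called, and a median of 0.02. D2 susceptible mice had 1 higher and 0 lower, with 4.28% of all genes called in either direction, and a median of 0.02. All of these comparisons carry the strain-scale shift and the library sets given above. With the preparation set as a model term, 1 member was called in B6 susceptible mice, where 1.03% of all genes were. In B6 resilient and D2 susceptible mice 0 were called, where 0.21% and 0.0153% of all genes were. Without B6 susceptible replicate 2 the count in B6 susceptible mice was 13.

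**Figure D5:**
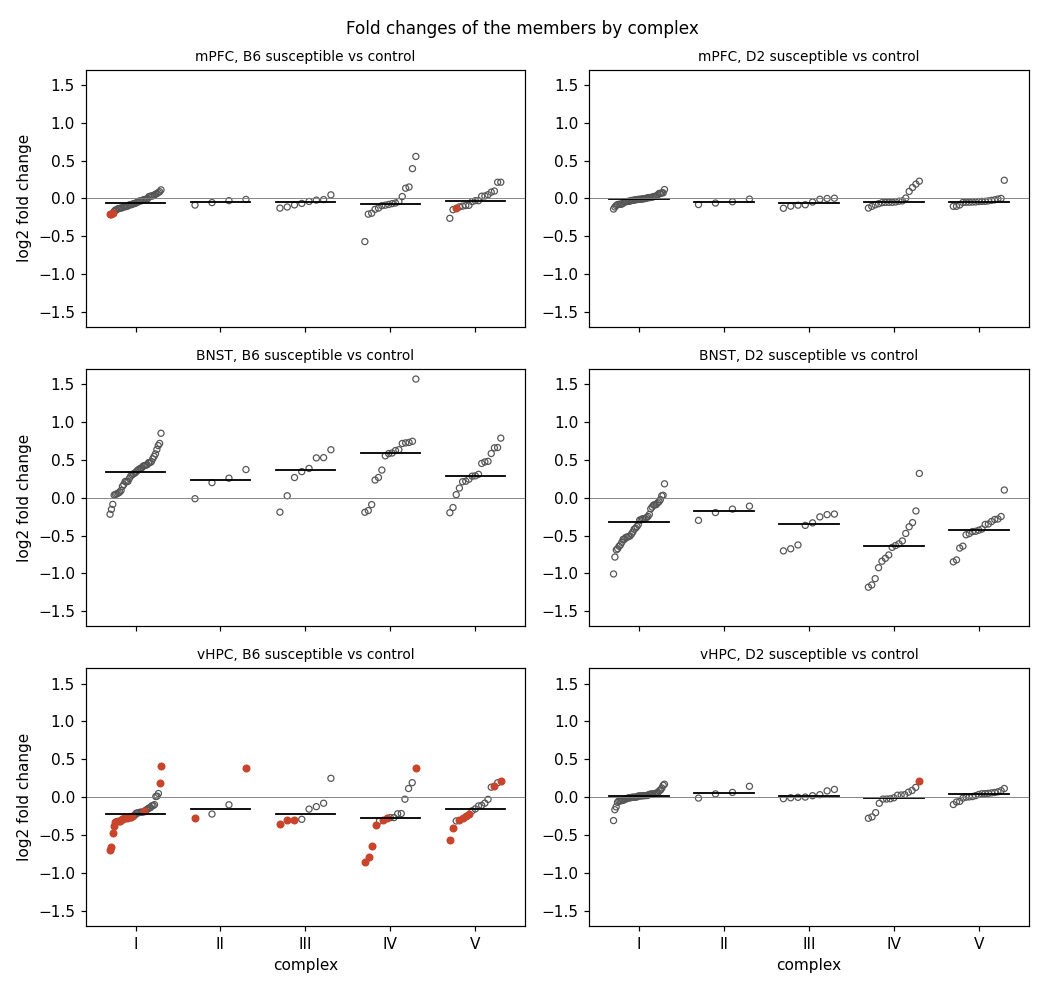
Log2 fold change of susceptible against control mice for each tested member, sorted within its complex, by region (rows) and strain (columns); filled points were called (adjusted p under 0.05), open points were not, and lines are medians. The BNST members lie mostly above 0 in B6 (medians 0.23 to 0.59) and below 0 in D2 (-0.64 to -0.17) with none called, and the vHPC members lie mostly below 0 in B6.

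Cox7a2l in the vHPC was at 6.32 to 6.68 log2 CPM in B6 controls (median 6.54), 5.86 to 6.496 in resilient mice (median 6.27), 5.61, 5.596 and 5.79 in susceptible mice and 5.00 to 5.33 in D2 controls. The susceptible mice lay below all resilient mice and above all D2 controls. The log2 fold change against B6 controls was -0.32 (SE 0.09, adjusted p = 0.0168) in resilient mice and -0.86 (SE 0.11, adjusted p = 3e-06) in susceptible mice, beside -1.37 in D2 controls. Cox7c had the same order of group medians, 2.99, 2.75, 2.22 and 1.71, with log2 fold changes of -0.35 (SE 0.08, adjusted p = 0.00384), -0.80 (SE 0.10, adjusted p = 3.01e-06) and -1.33. The pseudogene Ndufs6b was at -0.29 (SE 0.10, adjusted p = 0.0472) in resilient and -0.70 (SE 0.12, adjusted p = 0.000128) in susceptible mice. Cox5a was higher, at 3.91 to 4.171 in B6 controls (median 4.05), 4.10 to 4.38 in resilient mice (median 4.31), 4.35, 4.49 and 4.48 in susceptible mice, 4.61 to 4.88 in D2 controls (median 4.75) and 4.88, 5.03, 5.02, 4.93 and 4.96 in D2 susceptible mice. Its log2 fold change was 0.21 (SE 0.05, adjusted p = 0.00956) in resilient and 0.39 (SE 0.07, adjusted p = 0.000156) in susceptible B6 mice, 0.22 (SE 0.06, adjusted p = 0.0342) in D2 susceptible mice, and 0.69 between controls of the strains. The comparisons of B6 mice and of the strains share the B6 controls. Cox7a2l and Cox7c were not summed with their near copies, given above, in the comparisons of defeated mice. For these genes the medians of the defeated B6 groups lay on the D2 side of that of the B6 controls.

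Sdha and Ndufa8 had the largest increases among the members called in B6 susceptible mice of the vHPC. Sdha was at 7.60 to 7.704 log2 CPM in controls (median 7.65), 7.47 to 8.06 in resilient mice (median 7.77) and 7.98, 8.09 and 8.06 in susceptible mice. Susceptible mice lay above all controls and overlapped the top of the resilient range, with log2 fold changes of 0.39 (SE 0.09, adjusted p = 0.00182) against controls and 0.28 (SE 0.09, adjusted p = 0.0231) against resilient mice. Sdhd, a membrane anchor of the same complex, was lower by -0.28 (SE 0.11, adjusted p = 0.0495), and Sdhb (-0.22, SE 0.10, adjusted p = 0.0655) and Sdhc (-0.10, SE 0.08) were not called. Ndufa8, an accessory complex I subunit, was at 4.44 to 4.72 in controls (median 4.605) and 4.98, 5.04 and 4.98 in susceptible mice, without overlap, and its log2 fold change was 0.41 (SE 0.10, adjusted p = 0.00291).

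Susceptible against resilient B6 mice in the vHPC gave 3 higher and 42 lower members of 84, with 14.1% and 13.6% of all genes called higher and lower, and a median of -0.23. With the preparation set as a model term 0 were called (0% of all genes) and with only the groups compared 3 (5.2%). Without susceptible replicate 2 the count was 2. Complex I had 1 higher and 22 lower, complex II 1 and 3, complex III 0 and 4, complex IV 0 and 6 and complex V 1 and 7. Cox7a2l (-0.54, SE 0.11), Atp5mpl (-0.47, SE 0.13) and Uqcr11 (-0.45, SE 0.14) were lowest. Uqcr11, a small complex III subunit, was at 5.17 to 5.98 log2 CPM in resilient mice (median 5.68), 5.07, 5.09 and 5.24 in susceptible mice and 5.13 to 5.61 in controls (median 5.48), so the groups overlapped (adjusted p = 0.0207). Sdha, Atp5d (0.17, SE 0.06) and Ndufab1 (0.15, SE 0.05) were higher. The interaction gave 0 called members, 0.782% of all genes being called, with 27 higher and 1 lower unadjusted against 9.37% and 9.03% of all genes, and a median of 0.22. Cox7a2l had the lowest p-value (0.58, SE 0.15, adjusted p = 0.0656), and Ndufab1 that of the other direction (-0.16, SE 0.07).

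Less the shift along the strain-marker scale, the vHPC comparisons with controls held no call. In B6 susceptible mice 0 of 19559 genes and 0 members were called, with 46 members lower and 1 higher unadjusted where 24.3% of all genes were, and the median of the members was -0.18. B6 resilient and D2 susceptible mice and the interaction also had 0 members called. Susceptible against resilient mice had 18 lower and 0 higher members, with 11.5% of all genes called and a median of -0.22. In the mPFC the same correction gave 3 members lower in B6 susceptible mice (1.72% of all genes called) and 2 lower against resilient mice (1.4%). The cell markers of B6 susceptible mice of the vHPC also differed from controls: all 10 oligodendrocyte markers (median -0.77), 7 of 8 endothelial and 8 of 9 pericyte and smooth muscle markers were lower, as were 5 of 8 microglia and 3 of 8 choroid plexus markers (median -2.74, 7 lower unadjusted). Of the neuronal lists, 6 of 8 cortical (median 0.48), 4 of 6 excitatory, 3 of 6 inhibitory, 3 of 5 parvalbumin interneuron and 5 of 10 neuron markers were higher. In the neuron list 1 marker was lower. Of the 8 hippocampal markers 0 were higher and 2 lower (median -0.01), and of the 8 astrocyte markers 1 was higher and 3 lower (median -0.18). Oligodendrocyte markers summed to 3507 to 3943 CPM in controls and 2063 to 2361 CPM in these mice. The part of the markers in the member differences was not tested.

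Other genes of the pathway were counted from fixed lists. In B6 susceptible mice of the vHPC, 0 complex I assembly factors of 15 tested were higher and 4 lower (median -0.15), 2 of 19 complex IV assembly factors were higher and 3 lower (median -0.02), 4 of 13 tricarboxylic acid cycle genes were higher and 6 lower (median -0.11), and 4 of 14 regulators of mitochondrial genes were higher and 1 lower (median 0.02). The 11 mitochondrial genome protein genes in that table had 1 higher and 2 lower (median -0.16). In B6 susceptible mice of the BNST the complex I assembly factors had a median of -0.02, the complex IV assembly factors 0.02 and the regulators -0.0048, with 0 called, and in D2 susceptible mice -0.08, -0.02 and -0.02. The tricarboxylic acid cycle genes were at 0.10 and -0.14, the complex II assembly factors at 0.13 and -0.22 and the mitochondrial carrier and import genes at 0.16 and -0.21, the last with 4 of 13 higher unadjusted in B6 and 4 lower in D2. The subunit genes had medians of 0.35 and -0.40, and the mitochondrial genome protein genes, at 0.89 and -1.12, were farther from 0 than the subunit genes, which is a description and was not tested. In the mPFC of B6 susceptible mice, 0 of these assembly factors and regulators were called, 1 of 13 mitochondrial carrier and import genes was lower, and 1 of 8 mitochondrial genome protein genes was lower (median -0.24).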

How the data were processed

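Total RNA depleted of ribosomal RNA was sequenced from the mPFC, BNST and vHPC of male mice. There was 1 library per mouse and region, and 7 mice were in both the mPFC and vHPC. The p-values measure the spread between mice of a group, and the main fits held no term for the library set. Per the paper's methods, reads were aligned with STAR to GRCm38, duplicates were removed and reads per gene were counted with HTSeq. D2 reads were aligned to the B6 genome, which can lower or shift D2 counts of genes with variants. The kit differed by region. The authors deposited log2 CPM values for the mPFC and vHPC, made with voom and corrected with ComBat, and these hold no depth. For the BNST the authors deposited read counts per gene, 11825757 to 25793910 per library. Gene symbols came from GENCODE M21, and 99.2% of the genes had one.

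The log2 CPM tables were tested with limma 3.58.1 (robust empirical Bayes, 18946 genes in the mPFC and 19559 in the vHPC). The BNST counts were tested with edgeR 4.0.16 (robust quasi-likelihood, TMM factors) over 17515 of 48795 genes, those that reached 1 CPM in 6 or more libraries. All groups of a region entered 1 fit, and BNST levels had 0.5 reads added. Calls were at a Benjamini-Hochberg adjusted p under 0.05 over all genes of the region. Members named in the text were, in a comparison with calls, up to 3 called members with the highest and 3 with the lowest fold change whose mice all lay on 1 side of the other group's mean, and, in a comparison with no call, the member with the lowest p-value in each direction. Members at the extremes of level per length, fixed paralog sets, the complex II genes and members called with 1 sign in several comparisons were named too. Others named were chosen after their values were seen. Values of 1 named member are not reported here, and it stays in the counts. The members and lists were chosen with earlier results of these data known.

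Levels per length divided CPM by the length of the principal transcript. Shared sequence was the percentage of a transcript's 91-base stretches found in another gene. Strain markers of a region were non-member genes that had a log2 difference over 1.5 between controls in another region, and one over 1 between the controls of the region itself. The alternatives were DESeq2 1.42.0, other normalizations and filters, batch terms, fits of the compared groups alone and leaving out each mouse. The correction by strain position was chosen after seeing the data. Each fit was also tested on simulated data. Of 200 genes given a true log2 change of 1, the mPFC fit recovered 95.5%, the BNST fit 91% and the vHPC fit 94%. False calls numbered 14, 14 and 10 in the same order. The simulated noise was independent between libraries and held no library set or strain-scale shift. Most member differences are smaller than 1, so these shares do not give the power to call them. R 4.3.3, Python 3.11.15 and matplotlib 3.10.9 were used.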

Additional observations from a re-analysis of the deposited data

Results flagged for a closer look

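The median position was looked at in 84 combinations of a group of mice with a complex or with all members. The same mice recur over the combinations, which are not independent. In 4 combinations a mouse lay far from the others of its group, and chance gives about 1 in 20 for independent ones. These were B6 resilient replicate 3 in complex II of the mPFC at 0.17, B6 control replicate 5 at 0.11 and D2 control replicate 1 at 0.16 in complex V of the mPFC, and D2 control replicate 2 in complex III of the BNST at -0.78.

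In the BNST every B6 susceptible mouse lay above the mean of its controls and every D2 susceptible mouse below, in the median over all members, over complex I and over complex IV. The mean differences on the log2 scale were 0.34 in B6 and -0.36 in D2 over all members, 0.26 and -0.30 in complex I and 0.53 and -0.51 in complex IV. The difference between the strains in these medians was not tested.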

How the results depend on the processing

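Within a region every mouse was in 1 group and the labels give no replicate numbers, so no comparison was paired. The mouse names link the mPFC and vHPC libraries of 7 mice, but no test was made between regions. Counts of called members changed as follows. In the mPFC, B6 susceptible mice had 0 with the library set, the name prefix or only the compared groups in the model. Susceptible against resilient mice had 0 under these and 6 with a trend (2.8% of all genes called). That comparison had 5 after quantile scaling (2.87%) and 5 with a mean log2 CPM of at least 1 (2.94%). In the BNST, DESeq2 gave 1 in D2 susceptible mice (0.0685% of all genes called), 5 between strains (3.77%) and 16 in the interaction (1.27%). The interaction had 4 without TMM (8.08% of all genes), 7 with voom and ComBat, 1 of them higher (14.9%), and 8 with the prefix (0.457%). In the vHPC, B6 resilient mice had 0 with the library set (0.21% of all genes called), sequencing set (2.85%) or strain position (0%). They had 1 with only the compared groups (6.44%). B6 susceptible mice had 1 with the library set (1.03%) and 0 with the strain position (0%). Susceptible against resilient mice had 0 with the library set (0% of all genes called) and 29 with the sequencing set (20.5%). The same comparison had 3 with only the compared groups (5.2%) and 18 with the strain position (11.5%). D2 susceptible mice had 0 after quantile scaling and with the library set, sequencing set, prefix or strain position, the strain comparison had 4 with the library set, and the interaction 1 with a trend, 1 after quantile scaling and 4 with only the compared groups. The cause was not tested.

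Leaving out 1 mouse gave 0 to 6 called members in B6 susceptible mice of the mPFC, 0 to 7 against resilient mice (7 without B6 resilient replicate 5, 6 without susceptible replicate 1, 1 without 4, 0 without resilient replicate 1, 2, 3 or 4 or susceptible replicate 2, 5 or 6) and 14 to 22 between strains. In the BNST it gave 2 to 3 between strains and 0 to 11 in the interaction (11 without B6 control replicate 4, 7 without D2 control replicate 5, 3 without B6 susceptible replicate 3). In the vHPC it gave 4 to 6 in B6 resilient mice, 13 to 37 in B6 susceptible mice (13 without replicate 2, 19 without replicate 1), 2 to 61 against resilient mice (2 without susceptible replicate 2, 9 without 1, 23 without 3, 25 without resilient replicate 5 or 6), 0 to 1 in D2 susceptible mice, 30 to 37 between strains and 0 to 1 in the interaction (1 without B6 control replicate 3 or D2 susceptible replicate 1 or 3). The other comparisons gave 0 each time. The share of all genes called is not given for the fits without 1 mouse. Their counts therefore describe the fits and are no result about the members. In B6 susceptible mice of the mPFC the count was 0 without control replicate 1, 3 or 4 or susceptible replicate 2, 5 or 6, 1 without control replicate 5 or susceptible replicate 3 and 2 without control replicate 2. In D2 susceptible mice of the vHPC it was 0 without control replicate 1, 3 or 4 or susceptible replicate 2, 3, 4 or 5.

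Less the strain position, 3 members of B6 resilient mice of the vHPC changed sign: Cox5a to -0.0078, Cox7c to 0.067 and Cox7a2l to 0.12. Of 1226 alternatives of named members, 1047 kept direction and side of the threshold, 163 lost the call, 13 gained one and 3 changed sign. The prefix could not be fitted between the controls of the strains or for D2 resilient mice.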
